A study of Mus musculus with 24 samples.

Results

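Vascular smooth muscle cells and pericytes, together called mural cells, wrap the arterioles and capillaries of the brain, and 8 of their marker genes (*Acta2*, *Tagln*, *Myh11*, *Cnn1*, *Pdgfrb*, *Rgs5*, *Des* and *Myl9*) were followed across the mRNA libraries of the nucleus accumbens (NAc). The genes were found by symbol, and these 8 of the 38293 listed genes were all among the 18593 with enough reads to be tested. The set was chosen by the levels and stress differences of these same mRNA libraries, so its values are given as a description, with no p. Further mural genes and the microRNAs (miRs) of smooth muscle were tested, but these lists too were chosen with earlier results of these data known. Their p values are therefore not free of that choice.

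Bilateral NAc punches came from gonadally intact C57BL/6J mice of 4 groups, which were unstressed males (NSM), males after Subchronic Variable Stress (SM), unstressed females (NSF) and females after this stress (SF). Subchronic Variable Stress (SCVS) alternates foot shock, tail suspension and restraint over consecutive days. All mice were 9 weeks old per the labels, all females were in estrus or proestrus, and the labels name no transgene or drug. Each group had 3 mRNA and 3 small RNA libraries, each a pool of 10 punches from 5 mice, so that differences between single mice cannot be seen.

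Smooth muscle cells contract by sliding actin against a smooth muscle myosin, and they switch this apparatus on through serum response factor and its partner myocardin, which bind CArG boxes near their target genes. Pericytes sit on capillaries, depend on platelet-derived growth factor B from the endothelium, and carry its receptor. Because mural cells are a small share of brain tissue, their genes are read at low levels in bulk RNA, and fewer cells and less RNA per cell cannot be told apart there.

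Promoter sequences from RefSeq (build GRCm38.p6) were at hand for 5 of the 8 genes, namely *Acta2*, *Cnn1*, *Rgs5*, *Des* and *Myl9*. The CArG box was searched on both strands in a window from 250 bases before to 50 bases after the start of each gene, either in its exact form or with 1 C or G among its middle bases. Boxes were found at *Acta2* and *Myl9*, and their upstream bases are shown, 5′ to 3′ on the strand of the gene, because the 2 genes differ from the other 3 in this feature. Capitals mark the CArG boxes.
Acta2, chr19:34255374-34255623, minus strand: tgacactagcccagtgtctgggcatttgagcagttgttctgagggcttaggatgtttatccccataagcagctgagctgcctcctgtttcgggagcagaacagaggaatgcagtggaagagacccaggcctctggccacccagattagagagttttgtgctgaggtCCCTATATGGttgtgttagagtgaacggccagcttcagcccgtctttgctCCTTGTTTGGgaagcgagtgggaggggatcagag
Myl9, chr2:156775214-156775463, plus strand: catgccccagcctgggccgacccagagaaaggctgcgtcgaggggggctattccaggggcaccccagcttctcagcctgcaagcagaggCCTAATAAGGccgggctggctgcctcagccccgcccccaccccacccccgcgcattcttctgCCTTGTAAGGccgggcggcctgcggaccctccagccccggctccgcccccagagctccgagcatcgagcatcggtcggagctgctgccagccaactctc
The boxes of *Acta2* begin 84 and 34 bases before the start, and both hold 1 C or G among the middle bases. *Myl9* has an exact box that begins 161 bases before the start and a box with 1 such base that begins 99 bases before it. Of all 32851 promoter windows 1.63% hold an exact box, 8.5% a box with 1 C or G, 9.98% either form and 0.679% at least 2 boxes with 1 C or G. A match to these letters is a description of the sequence, and no binding was measured here.

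The mRNA libraries held 41076780 to 60867747 reads. The label of the tissue was checked with 8 markers of striatal neurons, which summed to 4070 to 5148 CPM (edgeR's unit for reads relative to library size) and of which 0 were called in any comparison. For stress in males 8 of 8 had a positive log2 fold change, with a median of 0.12 beside -0.01 over all tested genes. For stress in females 4 were positive and 4 negative. Markers of neighbouring tissue differed more between libraries. The 7 markers of cortical excitatory neurons summed to 5.49 to 21.4 CPM in unstressed males, 48.05 to 197 in stressed males, 21.4 to 366 in unstressed females and 42.9 to 114 in stressed females, and 5 of 5 tested red cell markers rose in stressed males. The 7 choroid plexus markers summed to 111 CPM in NSM1 and to 33.8 to 45.4 CPM in the other libraries, and this excess was *Ttr*, transthyretin, with 66.1 CPM in NSM1. Without *Ttr* the other 6 summed to 45.1 CPM in NSM1 and to 33.2 to 44.9 CPM elsewhere, and most of this sum was *Clic6* with a mean of 27.1 CPM. *Kl* (12.6 CPM), *Otx2* (2.17 CPM), *Aqp1* (0.618 CPM) and *Folr1* (0.582 CPM) were also highest in NSM1 of all libraries, whereas *Clic6* and *Kcnj13* were not.

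**Figure D1:**
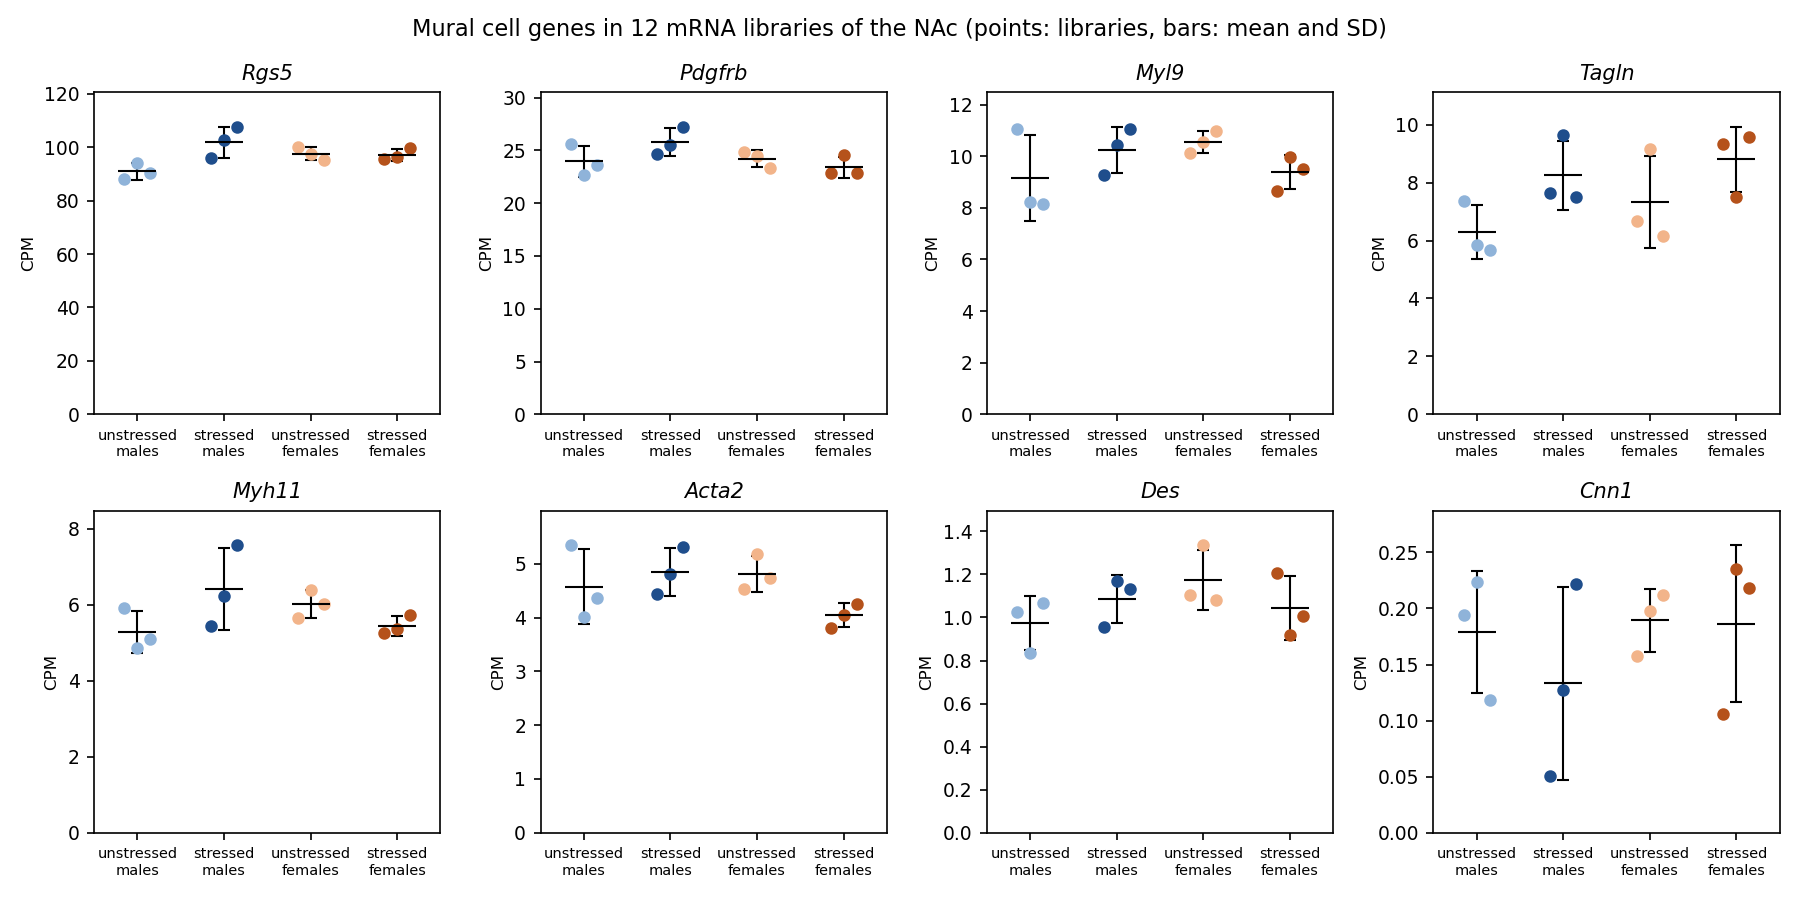
CPM of the 8 mural genes (vertical axes, starting at 0) in the 12 mRNA libraries, with the 4 groups on the horizontal axes. Points are libraries, and bars are the mean and SD of 3 libraries. *Rgs5* is near 100 CPM and *Cnn1* below 0.24 CPM, and most groups overlap.

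Levels of the 8 genes were first compared with each other after dividing by exon length. *Rgs5*, a regulator of G protein signalling typical of brain pericytes, had the highest level per length with 21.3 CPM per kb as the mean of 12 libraries (range 19.4 to 23.6). *Myl9*, the regulatory light chain of smooth muscle myosin, followed with 8.46 CPM per kb (range 7.03 to 9.52). *Tagln*, the actin-binding protein transgelin, with 4.84 CPM per kb (3.57 to 6.07) and *Pdgfrb*, the receptor for platelet-derived growth factor B, with 4.45 CPM per kb (4.14 to 4.98) overlapped. Next came *Acta2*, smooth muscle actin, with 2.57 CPM per kb (2.14 to 3.00) and *Myh11*, the heavy chain of smooth muscle myosin, with 0.874 CPM per kb (0.735 to 1.14). *Des*, the intermediate filament desmin, had 0.285 CPM per kb (0.222 to 0.356) and *Cnn1*, the actin-binding calponin 1, had 0.0726 CPM per kb (0.0213 to 0.0991). Apart from *Tagln* and *Pdgfrb*, neighbours in this order did not overlap in any of the 12 libraries.

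The effect of SCVS on these genes was then described in each sex by the log2 fold change of stressed over unstressed libraries. In males 7 of 8 genes had a positive log2 fold change, with a median of 0.16 beside -0.01 over all tested genes. In females 7 of 8 had a negative one, with a median of -0.12 beside -0.00392 over all tested genes. Of all tested genes 47.3% were positive in males and 48.4% in females. The sign differed between the sexes in 6 of 8 genes, the exceptions being *Tagln*, which was positive in both, and *Cnn1*, which was negative in both. The female value of *Rgs5* was only -0.01, and its sign changed in 8 of 25 alternative fits. The sign of *Cnn1* changed in 1 of 24 such fits in males and in 2 of 24 in females. Most of these differences were small, and a gene was taken as called, after the study's rule, when it changed by 1.3-fold or more with an unadjusted p below 0.05. In males 1 of 8 genes was called, *Tagln* (higher), beside 2.36% of all tested genes called higher and 4.08% called lower. In females 0 of 8 were called, beside 0.64% of all genes called higher and 1.09% called lower. Because the set was chosen from the same contrasts, nothing is read from these counts.

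**Figure D2:**
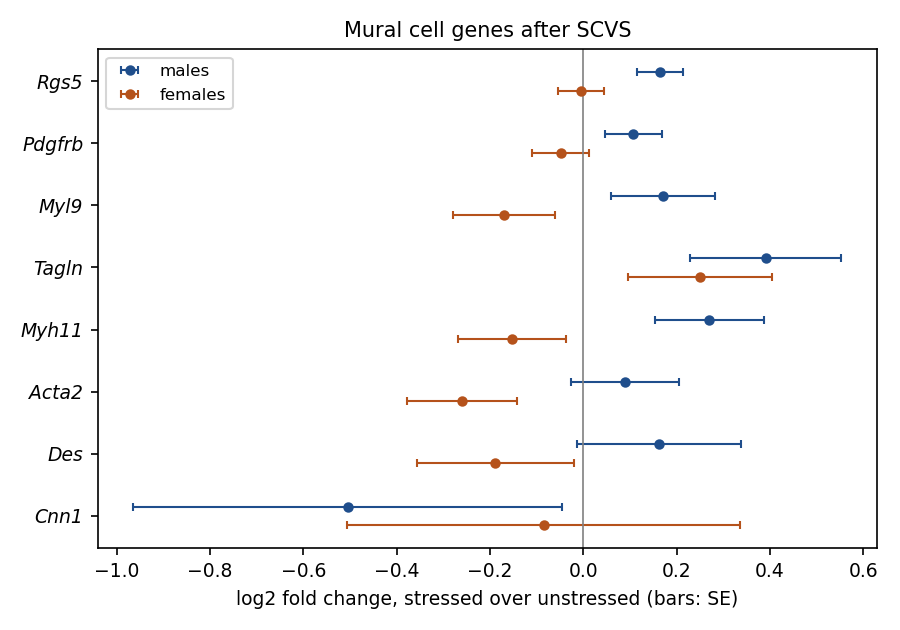
Log2 fold change of stressed over unstressed libraries (horizontal axis, bars are the standard error, SE) for the 8 mural genes in males and in females. In males the points lie above 0 except for *Cnn1*, and in females they lie below 0 except for *Tagln*.

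Among the 8 genes, *Tagln* (ENSMUSG00000032085, chromosome 9 of NCBIM37 from 45737711 to 45744141, minus strand) had the largest positive log2 fold change in males. It was read at 7.36, 5.85 and 5.66 CPM in NSM1 to NSM3 and at 7.63, 9.63 and 7.51 CPM in SM1 to SM3. In females it was read at 6.67, 9.16 and 6.16 CPM in NSF1 to NSF3 and at 9.32, 7.51 and 9.59 CPM in SF1 to SF3. All stressed male libraries lay above all unstressed ones, and in females the groups overlapped because NSF2 lay among the stressed libraries. The log2 fold change was 0.39 in males (SE 0.16) and 0.25 in females (SE 0.16), and without NSF2 the latter was 0.45. *Tagln* overlaps *Pcsk7* on the opposite strand, which was read at a mean of 24.5 CPM. The library kit does not mark strand, so reads in the overlap cannot be told apart and the level of *Tagln* is uncertain. *Pcsk7* itself had a log2 fold change of -0.06 in males (SE 0.08) and -0.04 in females (SE 0.08).

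*Myh11* (ENSMUSG00000018830, chromosome 16 from 14194620 to 14291501, minus strand) had opposite signs in the sexes. It was read at 5.91, 4.88 and 5.09 CPM in NSM1 to NSM3 and at 5.44, 6.23 and 7.58 CPM in SM1 to SM3. In females the values were 5.66, 6.40 and 6.03 CPM in NSF1 to NSF3 and at 5.25, 5.36 and 5.75 CPM in SF1 to SF3. The groups overlapped in both sexes, with SM3 the highest of all libraries. The log2 fold change was 0.27 in males (SE 0.12) and -0.15 in females (SE 0.12), and their difference, the sex-by-stress interaction, was -0.42 (SE 0.16). Without SM3 the male value was 0.15 and the interaction -0.29.

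*Acta2* (ENSMUSG00000035783, chromosome 19 from 34315580 to 34329826, minus strand) was read at 5.35, 4.003 and 4.36 CPM in NSM1 to NSM3 and at 4.43, 4.81 and 5.32 CPM in SM1 to SM3. The female libraries had 4.53, 5.18 and 4.74 CPM in NSF1 to NSF3 and at 3.81, 4.05 and 4.26 CPM in SF1 to SF3. All stressed female libraries lay below all unstressed female libraries and below all stressed male ones, whereas the male groups overlapped. The log2 fold change was 0.09 in males (SE 0.12) and -0.26 in females (SE 0.12). *Myl9* (ENSMUSG00000067818, chromosome 2 from 156601156 to 156607394, plus strand) was read at 11.1, 8.21 and 8.17 CPM in NSM1 to NSM3 and at 9.26, 10.4 and 11.05 CPM in SM1 to SM3. In females it was read at 10.1, 10.5 and 10.98 CPM in NSF1 to NSF3 and at 8.66, 9.98 and 9.50 CPM in SF1 to SF3, again with all stressed females below all unstressed ones. Its log2 fold change was 0.17 in males (SE 0.11) and -0.17 in females (SE 0.11).

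The library NSM1 was the highest of the unstressed males in *Acta2*, *Tagln*, *Myh11*, *Myl9* and *Pdgfrb*, and it was also the library with the high *Ttr*. Without it the male log2 fold change was 0.22 for *Acta2*, 0.33 for *Myl9*, 0.53 for *Tagln* and 0.37 for *Myh11*, and the median of the 8 genes was 0.22. The part of choroid plexus in these values was not tested.

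The remaining contractile genes were read at few counts. *Des* (ENSMUSG00000026208, chromosome 1 from 75356904 to 75365154, plus strand) was read at 1.02, 0.833 and 1.07 CPM in NSM1 to NSM3, at 0.956, 1.17 and 1.13 CPM in SM1 to SM3, at 1.10, 1.34 and 1.08 CPM in NSF1 to NSF3 and at 1.21, 0.919 and 1.00 CPM in SF1 to SF3. Its groups overlapped within each sex, with log2 fold changes of 0.16 in males (SE 0.18) and -0.19 in females (SE 0.17). A gene on the opposite strand of *Des*, *Gm15179*, had at most 1 read in a library. *Cnn1* (ENSMUSG00000001349, chromosome 9 from 21903725 to 21914074, plus strand) had 11, 11 and 6 reads in NSM1 to NSM3, 2, 6 and 10 in SM1 to SM3, 7, 12 and 10 in NSF1 to NSF3 and 5, 12 and 10 in SF1 to SF3. With 2 to 12 reads a library no difference was detectable at this depth, and the log2 fold changes of -0.51 in males (SE 0.46) and -0.08 in females (SE 0.42) rest on these few reads.

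The pericyte genes of the set had the smallest spread. *Rgs5* (ENSMUSG00000026678, chromosome 1 from 171585632 to 171625944, plus strand) was read at 88.2, 94.25 and 90.3 CPM in NSM1 to NSM3 and at 95.8, 103 and 107 CPM in SM1 to SM3. In females the values were 100.1, 97.6 and 95.2 CPM in NSF1 to NSF3 and at 95.6, 96.3 and 99.8 CPM in SF1 to SF3. All stressed male libraries and all unstressed female libraries lay above all unstressed males, and the female groups overlapped. The log2 fold change was 0.16 in males (SE 0.05) and -0.01 in females (SE 0.05), below the fold threshold in both. *Pdgfrb* (ENSMUSG00000024620, chromosome 18 from 61204804 to 61244715, plus strand) was read at 25.6, 22.7 and 23.6 CPM in NSM1 to NSM3 and at 24.7, 25.5 and 27.3 CPM in SM1 to SM3. The female libraries had 24.8, 24.5 and 23.3 CPM in NSF1 to NSF3 and at 22.9, 24.6 and 22.8 CPM in SF1 to SF3. Its log2 fold change was 0.11 in males (SE 0.06) and -0.05 in females (SE 0.06), and the groups overlapped within each sex.

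Counted by separation of the libraries, 2 of 8 genes (*Tagln* and *Rgs5*) were higher in every stressed than in every unstressed male library and 0 were lower, beside 11.3% and 11.7% of all tested genes. In females 2 of 8 (*Acta2* and *Myl9*) were lower in every stressed library and 0 were higher, beside 6.41% and 4.9%.

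The sexes were also compared within each stress condition. Unstressed females had a positive log2 fold change over unstressed males in 8 of 8 genes, beside 51.0% of all tested genes. The median was 0.16 beside 0.00335 over all tested genes, with a range from 0.02 for *Pdgfrb* to 0.28 for *Des*. The sign changed in 5 of 25 alternative fits for *Pdgfrb*, in 3 of 24 for *Cnn1* and in 2 of 25 for *Acta2*. None of the 8 was called, beside 4.17% of all genes called higher and 1.15% called lower in unstressed females. *Rgs5* and *Des* were higher in every unstressed female than in every unstressed male library, beside 11% of all tested genes that were higher and 8.45% that were lower. This comparison and the one of stress in males share the unstressed male libraries, so their like signs are not separate observations. In stressed mice 6 of 8 genes were lower in females by sign, whereas 51.5% of all tested genes were positive. The median was -0.10 beside 0.00553 over all tested genes, and 0 of 8 were called, beside 4.58% of all genes called higher and 0.968% lower. *Acta2* (-0.27, SE 0.12) and *Pdgfrb* (-0.14, SE 0.06) were lower in every stressed female than in every stressed male library, beside 7.65% of genes that were lower and 12.8% that were higher.

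Within a group the genes varied to different degrees. The SD of log2 CPM within groups was 0.0538 for *Rgs5*, 0.069 for *Pdgfrb*, 0.14 for *Acta2*, 0.15 for *Myh11*, 0.153 for *Myl9*, 0.172 for *Des*, 0.229 for *Tagln* and 0.504 for *Cnn1*, beside a median of 0.117 over all tested genes. Read depth follows the same order in part, with a median of 4608 reads for *Rgs5* and 10 for *Cnn1*. The deviations of the libraries from their group means were compared between genes as a description over 12 libraries, which share depth and tissue composition between genes. Of 28 pairs of genes 25 were positively correlated and 10 had a Pearson's r above 0.6, with a median of 0.439. Without *Cnn1* 20 of 21 pairs were positive and 7 had an r above 0.6, with a median of 0.424. Pairs of other genes were not compared. *Acta2* and *Myh11* were the closest pair (r = 0.896, Spearman's rho = 0.965, r = 0.883 without the 2 libraries farthest from the median), followed by *Acta2* and *Myl9* (r = 0.873, rho = 0.797, r = 0.712 without 2 libraries). *Rgs5* had r = 0.0821 to *Acta2*, 0.0162 to *Myl9* and -0.0189 to *Tagln*, but 0.424 to *Myh11* and 0.676 to *Cnn1* (0.333 and 0.432 without 2 libraries). *Tagln* was closest to *Des* (r = 0.636, rho = 0.455, r = 0.760 without 2 libraries).

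**Figure D3:**
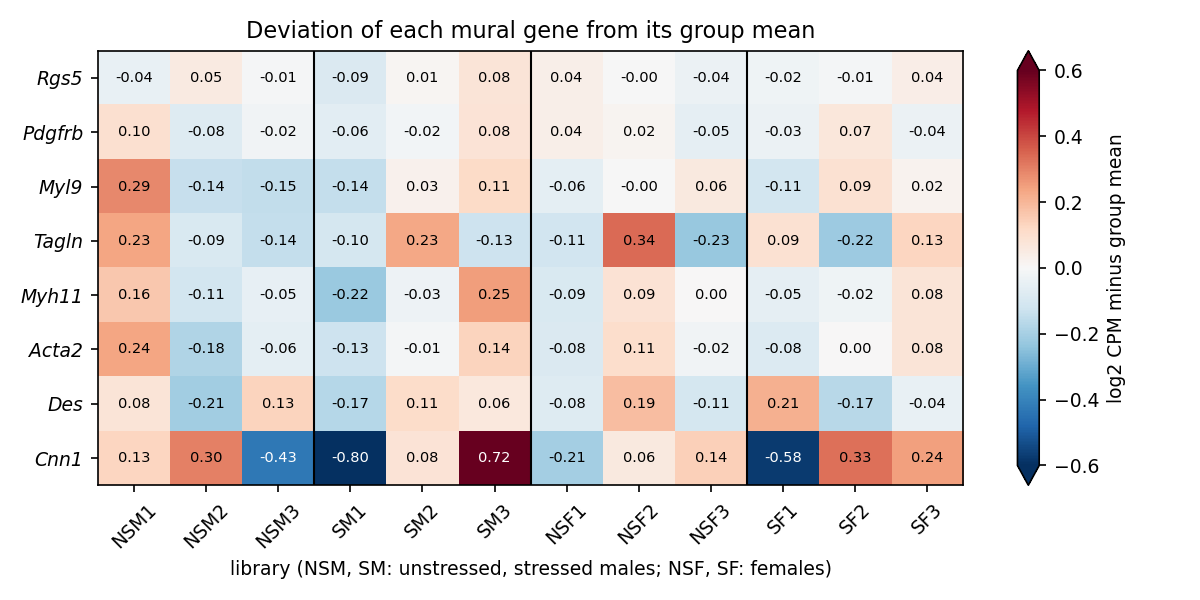
Deviation of log2 CPM from the mean of its own group (color, with the value in each cell) for the 8 mural genes (rows) in the 12 mRNA libraries (columns). *Acta2*, *Myh11* and *Myl9* are high together in NSM1 and SM3 and low together in NSM2 and SM1, and *Cnn1* ranges from -0.80 to 0.72.

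The 10 tested genes outside the set with the highest Pearson's r to the mean log2 CPM of the 8 genes, after subtracting group means over 12 libraries, were *Aox1* (r = 0.911), *Pofut1*, *Cd52*, *Tubg2*, *Gm15337*, *AC167242.1*, *8430406I07Rik*, *Lama3*, *Hip1* and *Icam1* (r = 0.888). When *Cnn1* was left out of the mean, 0 of these 10 genes were among the 10 most alike, so the ranking rests on the gene with the fewest reads. For lists of cell type markers the median r to the 8 genes was 0.500 for 18 endothelial genes (0.215 without *Cnn1*), 0.356 for 15 fibroblast genes (0.154), 0.216 for 15 other contractile genes (0.250) and 0.127 for 19 other pericyte genes (0.087), beside 0.000158 over all tested genes.

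To see how other genes of mural cells were regulated, a list of 16 further contractile genes and a list of 19 further pericyte genes were tested. Stress in males regulated the contractile genes in a mixed manner. Of 15 tested contractile genes 5 rose in males (*Synpo2*, *Lmod1*, *Nexn*, *Mylk* and *Tpm2*), 1 fell (*Smtn*) and 9 were not called, and the median log2 fold change of the list was 0.24 beside -0.01 over all tested genes, of which 2.36% were called higher and 4.08% lower. Only *Smtn* had an adjusted p under 0.05, as did 3.32% of all tested genes. Several genes of this list are also transcribed by neurons or glia, so the list is not specific to mural cells in this tissue. Without *Tpm1* and *Nexn*, its most abundant genes, the list summed to 52.8 to 58.9 CPM in unstressed and 59.1 to 67.5 CPM in stressed males, and to 66.6 to 71.7 and 62.0 to 69.1 CPM in females. *Actg2*, gut smooth muscle actin, had at most 5 reads and was not tested.

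*Smtn*, which encodes the contractile protein smoothelin, was read at 3.39, 3.13 and 3.31 CPM in NSM1 to NSM3 and at 1.86, 1.79 and 2.64 CPM in SM1 to SM3. It fell in every stressed male library, with a log2 fold change of -0.66 (SE 0.15, adjusted p = 0.0302, limma), and in females it was read at 3.15 to 3.91 CPM without and 3.09 to 3.43 CPM after stress. *Synpo2*, an actin-bundling protein of smooth muscle, was read at 7.64, 7.32 and 7.38 CPM in NSM1 to NSM3 and at 9.69, 13.2 and 10.2 CPM in SM1 to SM3, a log2 fold change of 0.56 (SE 0.15, adjusted p = 0.0571, limma). *Nexn*, the actin-binding nexilin, was read at 41.7, 41.0 and 41.6 CPM in NSM1 to NSM3 and at 56.7, 65.9 and 50.6 CPM in SM1 to SM3, a log2 fold change of 0.47 (SE 0.12, adjusted p = 0.0553, limma). *Lmod1*, leiomodin 1, which starts actin filaments in smooth muscle, rose by 0.48 on the log2 scale (SE 0.14, adjusted p = 0.0856, limma). *Mylk*, myosin light chain kinase, rose by 0.45 (SE 0.18, adjusted p = 0.180, limma) and *Tpm2*, beta-tropomyosin, by 0.42 (SE 0.17, adjusted p = 0.174, limma). The higher calls of these 5 genes thus rest on the unadjusted p. Without SM2 the number of called genes of both lists in males was 3 instead of 6, and the calls of *Nexn*, *Lmod1* and *Mylk* were lost. That of *Mylk* was also lost without NSM2, NSM3 or SM3 and that of *Tpm2* without NSM3, SM1 or SM3, whereas *Synpo2* and *Smtn* were called in each of the 12 fits that left out 1 library. With the red cell marker level as a covariate the value of *Smtn* was -0.37, and of these 6 calls all but that of *Synpo2* were lost. The male calls of *Mylk* and *Tpm2* were also lost under library size scaling and with the choroid plexus marker level as a covariate.

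**Figure D4:**
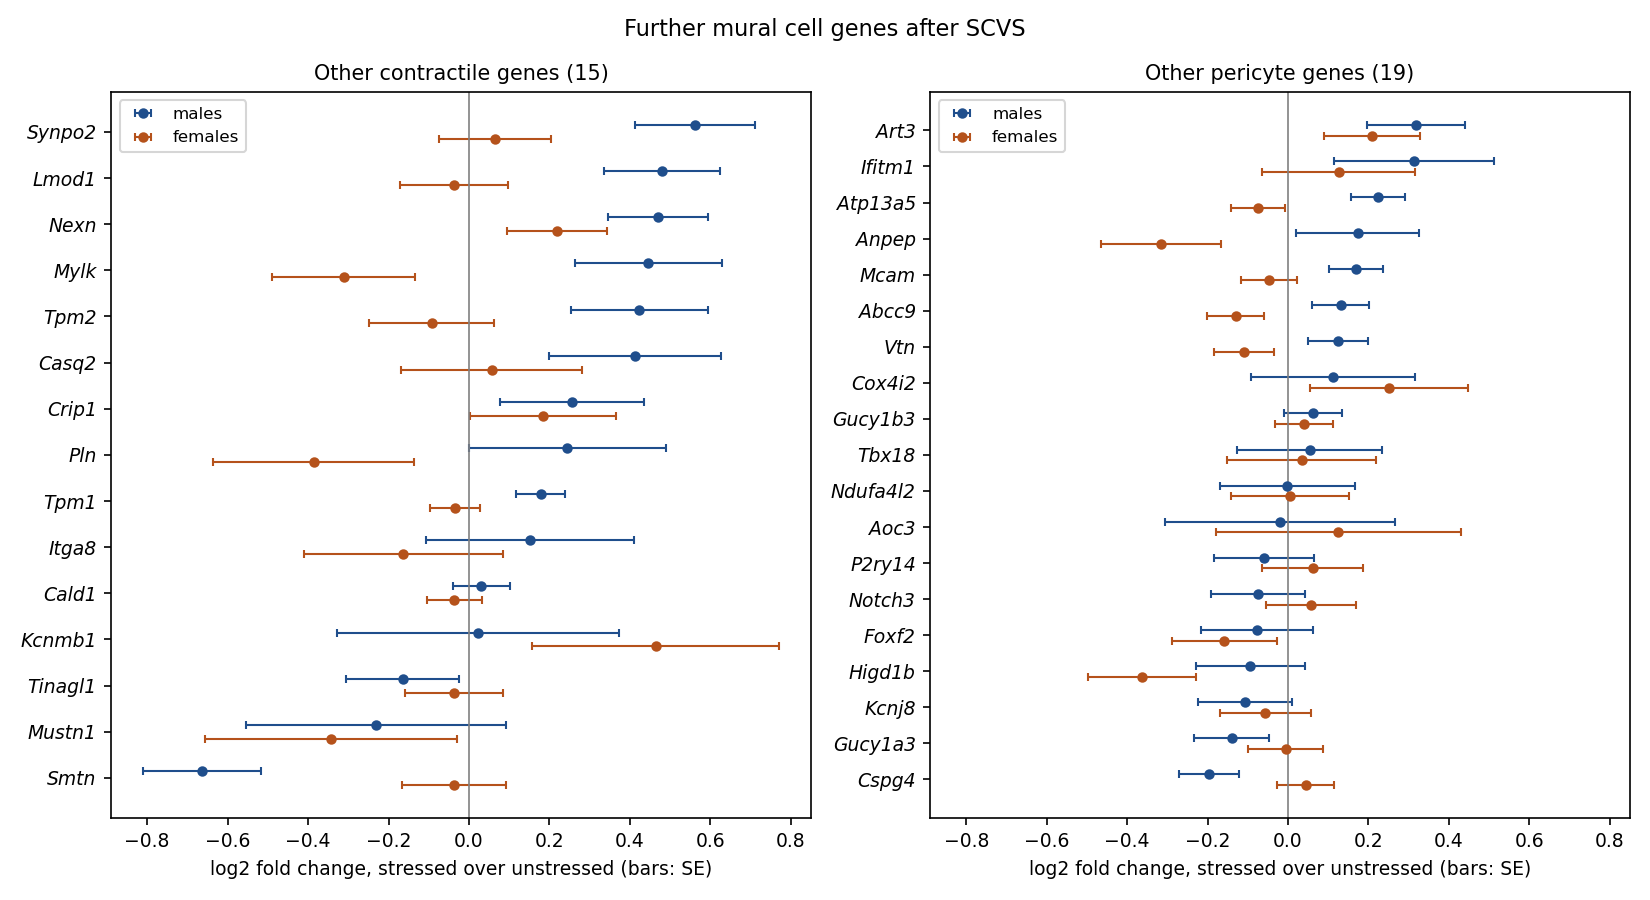
Log2 fold change of stressed over unstressed libraries (horizontal axes, bars are SE) for 15 other contractile genes and 19 other pericyte genes, in males and in females, ordered by the male value. *Smtn* at -0.66 and *Synpo2* at 0.56 mark the ends of the contractile genes in males, and the pericyte genes lie between -0.20 and 0.32 in males.

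In females 0 of the 15 contractile genes were called (limma), beside 0.64% of all tested genes called higher and 1.09% called lower. An unadjusted p under 0.05 was found for 0 of the 15, beside 786 of all 18593 tested genes. Both edgeR's quasi-likelihood test and DESeq2 also called 0. Of all tested genes 0% had an adjusted p under 0.05 in females (limma). The median log2 fold change of the list was -0.04. Its most abundant genes were *Tpm1*, alpha-tropomyosin, with -0.03 in females (SE 0.06) and 0.18 in males (SE 0.06, adjusted p = 0.121, limma), and *Nexn* with 0.22 in females (SE 0.12). The effects of stress differed between the sexes by the rule for calls in 5 of 15 genes, which were higher in females than males for *Smtn* (0.63, SE 0.20) and lower for *Mylk* (-0.76, SE 0.25), *Tpm2* (-0.52, SE 0.23), *Lmod1* (-0.52, SE 0.20) and *Synpo2* (-0.50, SE 0.20). Of all tested genes 2.25% were called higher in this way and 2.17% lower. None of the 5 had an adjusted p under 0.05 (0.319 to 0.506, limma), as 0.0269% of all tested genes had. Of the 12 fits that left out 1 library, *Smtn* and *Mylk* were called in all 12, *Lmod1* in 11 (lost without SM2), *Synpo2* in 8 (lost without SM2, NSF2, SF1 or SF2) and *Tpm2* in 5 (lost without NSM3, SM1, SM3, NSF1, NSF3, SF1 or SF2). With the red cell covariate the interaction calls of *Smtn*, *Mylk*, *Tpm2* and *Lmod1* were lost. That of *Lmod1* was also lost under DESeq2, and that of *Tpm2* under library size scaling and with the choroid plexus covariate. Between unstressed females and unstressed males 5 of 15 contractile genes were called, all higher in females (*Tpm2*, *Synpo2*, *Lmod1*, *Mylk* and *Tinagl1*, log2 fold changes 0.42 to 0.56), with adjusted p between 0.141 and 0.258 (limma). Of all genes 4.17% were called higher and 1.15% lower there, and 0.285% had an adjusted p under 0.05. The call of *Mylk* was lost without NSM2, NSM3, NSF1 or NSF3, that of *Synpo2* without NSF2 and that of *Tinagl1* without NSF3. Between stressed females and males *Smtn* (0.67) and *Tinagl1* (0.55) were called higher in females, with adjusted p of 0.0884 and 0.0917 (limma), beside 4.58% of all genes called higher, 0.968% called lower and 0.145% with an adjusted p under 0.05.

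In unstressed females *Mylk* and *Tpm2* followed the cortical neuron markers, with *Tpm2* at 4.49, 3.18 and 5.01 CPM in NSF1 to NSF3. Within the male groups *Tpm2* did not follow them. It was read at 2.91, 2.93 and 2.45 CPM in NSM1 to NSM3, whose cortical markers summed to 15.3, 5.49 and 21.4 CPM. SM1 to SM3 had 3.88, 3.32 and 3.97 CPM of *Tpm2* beside cortical sums of 48.05, 147 and 197 CPM. *Mylk* was read at 7.77 CPM in NSF2, whose cortical markers summed to 21.4 CPM, and at 10.98 and 13.4 CPM in NSF1 and NSF3, whose cortical markers summed to 256 and 366 CPM. With the cortical marker level as a covariate the log2 fold change of *Mylk* was -0.14 between unstressed females and males, and that of *Mylk* in males was -0.08. The calls of *Mylk* and *Tpm2* in males were then lost, as were those of *Mylk*, *Tpm2*, *Lmod1*, *Synpo2* and the pericyte gene *Anpep* in the interaction and those of *Mylk*, *Tpm2*, *Lmod1*, *Tinagl1* and the pericyte gene *Ndufa4l2* between unstressed females and males. Red cell markers summed to 21.9 to 27.5 CPM in unstressed and 38.5 to 47.3 CPM in stressed males without overlap, so their level and the stress condition cannot be told apart in males.

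The pericyte genes were tested in the same way. Of 19 further pericyte genes 0 were called in males and 0 in females (limma), and edgeR and DESeq2 called 0 in both sexes. Of all tested genes limma called 2.36% higher and 4.08% lower in males, and 0.64% and 1.09% in females. An unadjusted p under 0.05 was found for 4 of the 19 in males and 1 in females. Of all 18593 tested genes 3992 had such a p in males and 786 in females, so the pericyte counts were near the share over all genes. The median log2 fold change was 0.05 in males and 0.00406 in females. The 4 male genes were *Atp13a5*, a transporter of brain pericytes (0.22, SE 0.07), *Art3* (0.32, SE 0.12), *Mcam*, a cell adhesion molecule of mural cells (0.17, SE 0.07), and *Cspg4*, the NG2 proteoglycan of pericytes and oligodendrocyte precursors (-0.20, SE 0.08). *Vtn*, vitronectin, a defining pericyte gene, was read at 32.5 to 37.4 CPM in unstressed and 34.4 to 39.7 CPM in stressed males, and *Notch3*, the receptor that maintains arterial mural cells, at 15.4 to 21.3 and 15.1 to 19.98 CPM. *Anpep*, an aminopeptidase of pericytes, was called in the interaction (-0.49, SE 0.21, adjusted p = 0.498, limma). It was not called by DESeq2, under library size scaling or with the choroid plexus covariate, and was called in 5 of the 12 fits that left out 1 library (lost without NSM1, NSM2, SM1, NSF2, NSF3, SF1 or SF2). *Ndufa4l2* was called higher in females than males without stress (0.45, SE 0.15, lost without NSM1) and after stress (0.45, SE 0.16, lost without SM1). The most abundant genes of the list, *Gucy1b3* and *Gucy1a3*, are subunits of soluble guanylate cyclase, which striatal neurons also express, and had log2 fold changes of 0.06 (SE 0.07) and -0.14 (SE 0.09) in males and 0.04 (SE 0.07) and -0.01 (SE 0.09) in females. The other 17 genes summed to 128 to 134 CPM in unstressed and 133 to 145 CPM in stressed males, and to 140 to 142 and 129 to 143 CPM in females, with overlap in both sexes.

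Genes that signal to or within mural cells were tested as a further list of 22, of which 21 had enough reads. In males limma called 2 of them higher, *Acvrl1* and *Jag1*, and 0 lower, beside 2.36% and 4.08% of all tested genes. edgeR and DESeq2 each called 3, adding *Hey2*, a Notch target, as lower. *Hey2* was read at 6.83, 6.24 and 4.56 CPM in NSM1 to NSM3 and at 4.45, 4.47 and 4.52 CPM in SM1 to SM3. It was thus lower in every stressed than in every unstressed male library, as were 11.7% of all tested genes, but by little against NSM3. It just missed the fold threshold in limma (-0.37, SE 0.13). In females limma called 1 lower, *Angpt2*, and 0 higher, beside 1.09% and 0.64%, whereas edgeR and DESeq2 called *Hes1* there (-0.46) and not *Angpt2*. *Acvrl1*, a receptor for bone morphogenetic proteins on endothelium, was read at 9.67, 8.62 and 8.64 CPM in NSM1 to NSM3 and at 13.0, 14.1 and 13.8 CPM in SM1 to SM3, a log2 fold change of 0.61 (SE 0.12, adjusted p = 0.0208, limma). It was also higher in unstressed females than unstressed males (0.65, SE 0.12, adjusted p = 0.0389, limma), against the same low libraries. *Jag1*, a Notch ligand that endothelium presents to mural cells, was read at 7.57, 8.17 and 8.38 CPM in NSM1 to NSM3 and at 9.84, 10.7 and 11.1 CPM in SM1 to SM3, a log2 fold change of 0.40 (SE 0.08, adjusted p = 0.0190, limma). In females *Jag1* was read at 8.79 to 9.60 CPM without and at 8.21 to 9.36 CPM after stress, and the interaction was -0.42 (SE 0.11, adjusted p = 0.230, limma). *Angpt2*, an antagonist of the Tie2 receptor, had 0.744 ± 0.0441 CPM (SD, n = 3 libraries) in unstressed and 0.530 ± 0.160 CPM in stressed females, a log2 fold change of -0.52 (SE 0.24, adjusted p = 0.948, limma). *Pdgfb*, the ligand of *Pdgfrb*, was called between unstressed females and males (0.44, SE 0.10, adjusted p = 0.0924, limma), and *Hes1* (0.56) there and *Tgfb1* (0.46) between stressed females and males were called higher in females. *Myocd*, which encodes myocardin, had at most 11 reads and was not tested.

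Other cells of the vessel wall were compared in the same manner, with 0 of 18 endothelial genes called in females by limma, edgeR or DESeq2 (5 had an unadjusted p under 0.05 in limma, and the abundant *Flt1* had -0.15, SE 0.06). Of all 18593 tested genes limma called 0.64% higher and 1.09% lower in females, and 786 had an unadjusted p under 0.05 there. In males 2.36% were called higher and 4.08% lower. Of 18 endothelial genes *Cldn5*, a tight junction protein, fell in males (-0.45, SE 0.18, adjusted p = 0.176, limma), and *Slco1a4*, a transporter of the blood-brain barrier, was higher with an adjusted p of 0.0374 (limma) at 0.28 (SE 0.07), below the fold threshold. *Vwf* was called in unstressed females against males (0.61, SE 0.11) and *Slc2a1*, the glucose transporter of the barrier, in stressed females against males (0.40, SE 0.06). Of 15 fibroblast genes *Slc22a6* rose (0.74, SE 0.29) and *Col1a2*, a chain of type I collagen, fell (-0.48, SE 0.11, adjusted p = 0.0365, limma) in males, and 0 were called in females, where *Igf2* had a log2 fold change of -0.08 (SE 0.09) and 0 of the 15 had an unadjusted p under 0.05 and edgeR and DESeq2 called 0. By median the fibroblast genes had a log2 fold change of 0.18 in males (12 of 15 positive) and -0.08 in females (10 of 15 negative). The endothelial medians were -0.01 (8 of 18 positive) and -0.08 (12 of 18 negative). Medians of opposite sign in the sexes were thus not particular to the mural genes. Unstressed females had a positive log2 fold change over unstressed males in 14 of 15 fibroblast and 16 of 18 endothelial genes. Markers of skeletal muscle summed to 5.51 to 7.12 CPM and those of heart to 4.74 to 7.32 CPM over all libraries, while the defining genes *Ckm* and *Actc1* had at most 4 and 1 reads.

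**Figure D5:**
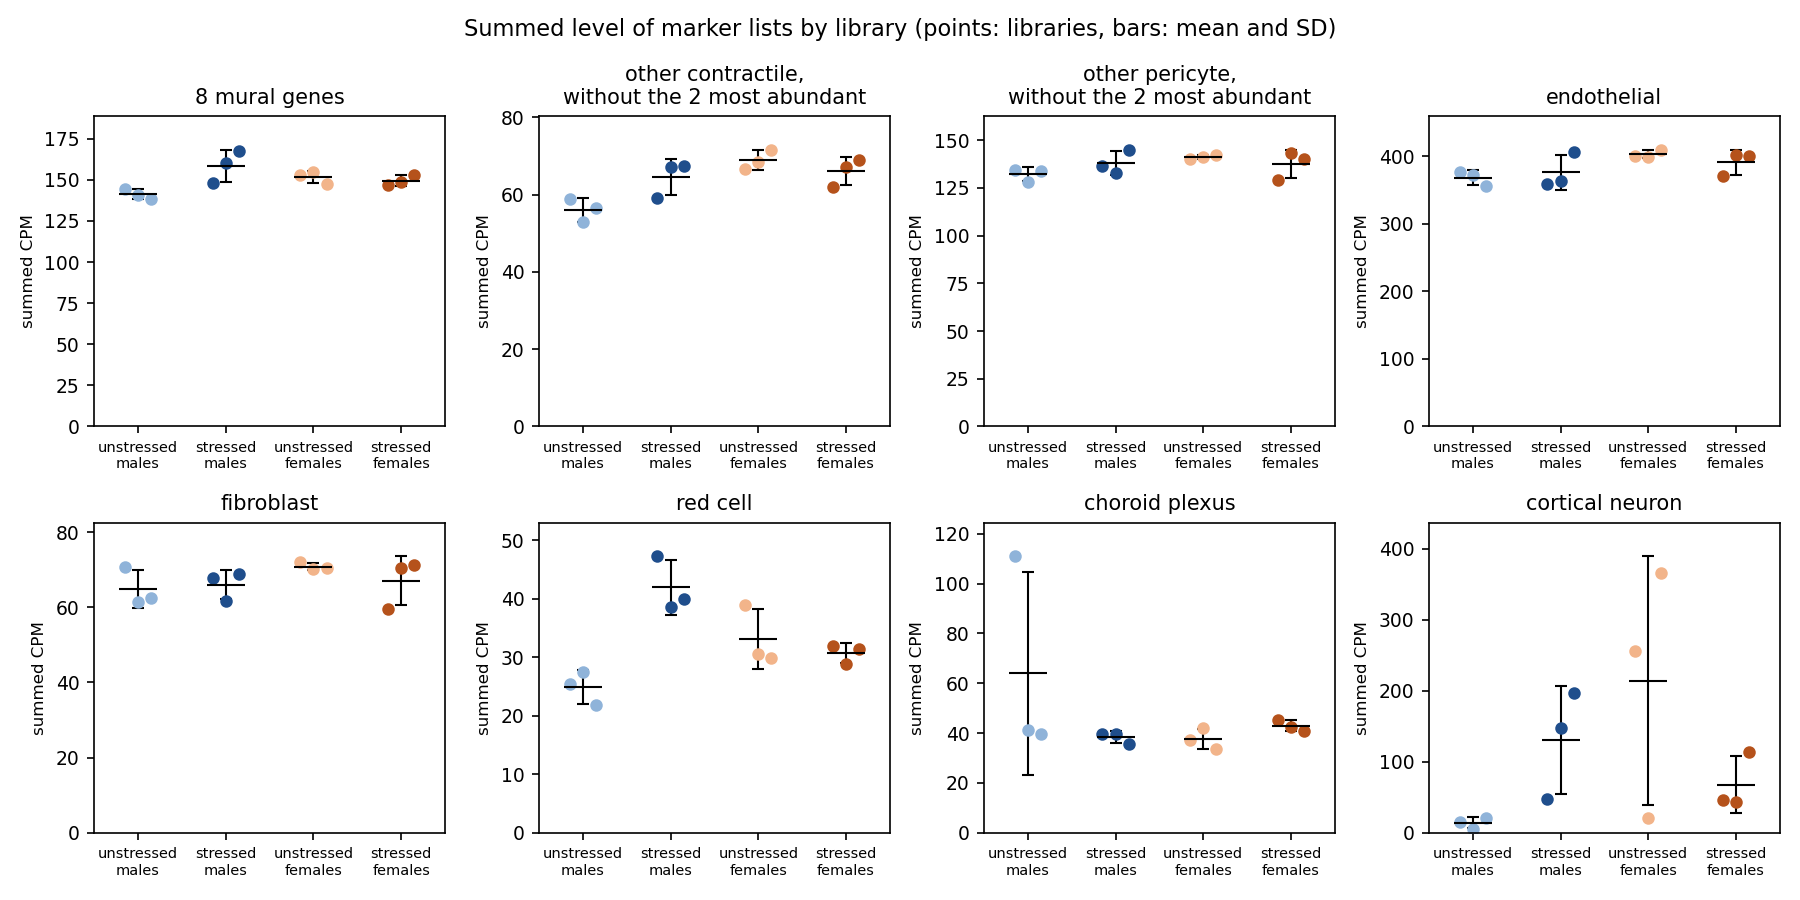
Summed CPM (vertical axes, starting at 0) of the 8 mural genes and of 7 marker lists (other contractile and pericyte genes without the 2 most abundant of each) in the 12 mRNA libraries, by group, with points for libraries and bars for the mean and SD of 3 libraries. The mural genes range from 138 to 167 CPM, red cell markers separate stressed from unstressed males, and NSM1 stands apart in choroid plexus markers through *Ttr*.

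The small RNA libraries, which the choice of the genes did not use, allowed a test of mir-143 and mir-145a, the miRs enriched in smooth muscle. mir-143 was read at 4883, 4963 and 4794 CPM in NSM1 to NSM3 and at 5060, 5707 and 5248 CPM in SM1 to SM3. In females it was read at 4795, 4639 and 4663 CPM in NSF1 to NSF3 and at 5144, 4913 and 5217 CPM in SF1 to SF3. In both sexes all stressed libraries lay above all unstressed ones, but the share of tested miRs that separated in this way was not counted. The differences were small, with log2 fold changes of 0.13 in males (SE 0.06, adjusted p = 0.401, limma) and 0.12 in females (SE 0.06, adjusted p = 0.693, limma). The effects of stress on mir-143 differed between the sexes by -0.01 (SE 0.09). mir-145a was read at 81.4 to 114 CPM in all libraries, with log2 fold changes of 0.06 in males (SE 0.10) and 0.14 in females (SE 0.10), and neither miR was called in any comparison. The study's own list of mature miRs holds mmu-miR-145a-3p as higher in stressed males. The counts used here are per precursor and do not separate its arms, so a change of 1 arm alone could not be tested. Of 500 tested miRs 5.2% were called in males, 4.8% in females, 6.8% in the interaction and 7.6% between unstressed females and males. mir-145b had at most 2 reads in a library and was not tested.

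Among miRs of skeletal muscle and heart, mir-206 differed most between the groups. Its mature 3p form is shown with the seed, bases 2 to 8, in capitals (RefSeq, GRCm38.p6, chr1:20679055-20679076, plus strand), although the counts do not separate the arms of the precursor.
mir-206-3p: uGGAAUGUaaggaagugugugg
mir-206 was read at 67.8, 73.4 and 48.02 CPM in NSM1 to NSM3 and at 165, 139 and 111 CPM in SM1 to SM3. The female libraries had 188, 260 and 162 CPM in NSF1 to NSF3 and at 97.6, 147 and 146 CPM in SF1 to SF3. It rose in males by 1.14 on the log2 scale (SE 0.22, adjusted p = 0.0676, limma) and in females it had a log2 fold change of -0.65 (SE 0.20, adjusted p = 0.344, limma), with no overlap in either sex, and the interaction was -1.80 (SE 0.30, adjusted p = 0.0131, limma). mir-1a-1 (0.43), mir-133a-1 (0.53) and mir-133a-2 (0.45) were also called higher in stressed males, with adjusted p between 0.134 and 0.279 (limma).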

How the data were processed

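The 24 libraries, 12 of mRNA and 12 of small RNA, were assigned to sex, stress condition and replicate number by their labels. For mRNA the authors used TopHat2 with Ensembl NCBIM37 (version 67), and the values deposited are raw HTSeq counts of reads in each gene. Small RNA reads were trimmed, aligned to mm9 with Bowtie and counted with HTSeq, and these deposited counts are per miRBase precursor. The kit for mRNA libraries does not mark strand, and the strand setting of the counting is not given in the sources used here.

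A filter of over 5 reads in 80% or more of any group's libraries was applied. Counts were scaled by TMM factors (edgeR 4.0.16) and fitted with voom and limma 3.58.1 in R 4.3.3, with one mean per group. The effect of stress in each sex, the sex-by-stress interaction and the sexes within each condition were tested. Benjamini-Hochberg adjustment ran over every tested feature of an assay and comparison. The steps were tested on simulated counts. Small RNA libraries held 5086554 to 13522287 reads. With 3 pools per group, p values measure the spread between pools. Symbols, coordinates and exon lengths are from the GENCODE annotation of NCBIM37, and the sources of the sequences are given beside them.

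The 8 genes and all lists were chosen with earlier results of these data known. Named genes were the 8 of the set, up to 4 called genes per list and comparison by size of change, the 2 most abundant where none was called (members of the lists for neighbouring tissue are given as sums), and the 10 genes most like the set. *Art3*, *Mcam*, *Atp13a5*, *Cspg4*, *Vtn*, *Notch3*, *Slco1a4*, *Actg2*, *Myocd*, *Ckm*, *Actc1*, *Pcsk7*, *Gm15179*, *Hey2*, the choroid plexus markers and contractile genes past the 4 largest calls were named after their values were seen. DESeq2 1.42.0, edgeR's quasi-likelihood test, other scalings and filters, replicate blocks, fits to the libraries of one comparison, fits without 1 library each and, chosen after seeing the data, marker levels as covariates were run as alternatives.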

Additional observations from a re-analysis of the deposited data

Results flagged for a closer look

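*Myh11* and *Myl9* moved in opposite directions in the sexes, in that each stressed male library lay above the mean of unstressed males and each stressed female library below the mean of unstressed females. The log2 fold change in females minus that in males was -0.42 for *Myh11* and -0.34 for *Myl9*. Because both genes were chosen from these libraries, this difference is a description, and no test of it is given.

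The effect of stress on mir-206 differed between the sexes by -1.80 on the log2 scale (adjusted p = 0.0131, limma). Its value ranged from -1.97 to -1.59 over the 21 alternatives that gave one. The mean level of mir-206 was 63.1 CPM in unstressed males and 203 CPM in unstressed females, and 138 and 130 CPM after stress. The study itself lists mmu-miR-206-3p as higher in stressed males and lower in stressed females.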

How the results depend on the processing

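The signs of the 8 mural genes rest on small differences between 3 pools per group. Covariates made from marker lists were chosen after seeing the data, red cell markers do not overlap between the male groups, and values without 1 library assume that the remaining ones vary like the other groups. Where a value moved, the cause was not tested. Under library size scaling 76.2% and under quantile normalization 52.3% of the genes called in males were lower, instead of 63.4%, and the median of the 8 genes in males was 0.11 and 0.18.

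With the adjusted p and the fold threshold together, 256 genes were called instead of 1198 for stress in males, 0 instead of 322 for stress in females (786 had an unadjusted p under 0.05 and DESeq2 gave 3 an adjusted p under 0.05), 5 instead of 822 for the interaction, 39 instead of 988 between unstressed and 24 instead of 1031 between stressed females and males. Of the other mural genes, 1 instead of 6 was then called in males, 0 in the interaction and 0 between the sexes, where 6, 6 and 3 were called by the rule used, and of the miRs 0 in males, 0 in females, 1 in the interaction and 2 between unstressed sexes, instead of 26, 24, 34 and 38. DESeq2 called 194 genes in females and 16, 12, 21 and 23 miRs in these 4 comparisons. With at least 1 read in any library as the filter, 865 genes were called in females, 1350 in the interaction, 1541 between unstressed and 1603 between stressed sexes, and 61, 47, 60 and 60 miRs. With at least 10 reads in every library, 205 genes and 11 miRs were called in females and 18 miRs in the interaction. Under library size scaling 1 other mural gene was called in females.

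With the red cell covariate 2 other mural genes were called in males, 1 in females and 0 between stressed sexes, 505 genes in females, 1587 between unstressed and 513 between stressed sexes, and the median of the 8 genes was 0.39 in males and -0.60 in the interaction. Under it *Cldn5* reversed to 0.30 in males. With the cortical covariate 3 other mural genes were called in the interaction and 2 between unstressed sexes, where 459 genes were called and *Mylk* reversed to -0.14, as it did to -0.081 in males. With the choroid plexus covariate 3 other mural genes and 651 genes were called between unstressed sexes, and the median of the 8 genes in the interaction was -0.42.

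Leaving out 1 library at a time gave 3 to 7 other mural genes in males (3 without SM replicate 2), 0 to 6 in females (6 without NSF replicate 2), 3 to 6 in the interaction (3 without SF replicate 1 or 2) and 3 to 5 between stressed sexes (5 without SM replicate 3), and 266 to 647 genes in females (647 without NSF replicate 2). The median of the 8 genes lay between 0.098 and 0.22 in males and between -0.19 and -0.066 in females. For mir-143 the difference between the sexes was 0.030 under library size scaling and 0.020 under quantile normalization, both reversed, and -0.056 to 0.037 without 1 library each (reversed without SM replicate 2). For mir-145a it was -0.0018 to 0.16 without 1 library each (reversed without SM replicate 1 or NSF replicate 1), and its male value -0.0082 to 0.14 (reversed without SM replicate 3).

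The labels number the replicates alike in all groups. Deviations of same-numbered libraries correlated at 0.0297, 0.00585 and 0.345 in males and at 0.110, 0.0880 and 0.127 in females, and 2 of 6 male and 6 of 6 female libraries were closest to their own number, a hint from the data and not from the design. With the replicate block 1309 genes were called in males and 362 in females, and the medians of the 8 genes were 0.16 and -0.10. With the replicate block by sex 5 other mural genes were called between stressed sexes and 19 miRs between unstressed sexes.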
